A study of Mus with 7 samples.

Results

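The 10 genes described here code for the enzymes and the activating protein that lead from membrane arachidonic acid to prostaglandins, thromboxane and leukotrienes. The genes are Pla2g4a, Ptgs1, Ptgs2, Ptges, Hpgds, Tbxas1, Alox5, Alox5ap, Lta4h and Ltc4s. They were chosen by symbol for their known roles, with earlier results of these data known. All 10 were found among the 31053 genes of the count files. They were followed in fetal liver-derived macrophages (FLMs), which grow from C57BL/6J mouse fetal liver in GM-CSF. The cells were passaged cultures and not freshly isolated macrophages. By the study's own account they resemble inflammatory macrophages derived from monocytes and may differ from the macrophages of a given tissue. All 7 libraries came from cells kept with 30 ng/mL GM-CSF. Con cells were collected in 10% FBS before any treatment. The other cells were held for 24 h in 0.25% FBS with 8.3 µM BSA alone (Veh) or with 25 µM of the omega-3 fatty acid docosahexaenoic acid (DHA) on 8.3 µM BSA. They were collected without LPS (Veh.LPS.0 and DHA.LPS.0), or after 1 h or 4 h with 20 ng/mL LPS from Salmonella, a TLR4 ligand (Veh.LPS.1, DHA.LPS.1, Veh.LPS.4 and DHA.LPS.4). There was 1 library per condition. No difference below therefore has a replicate check, no test was run, and every interval is a 95% interval for counting error only.

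In this pathway the cytosolic phospholipase A2 releases arachidonic acid from membrane phospholipids. The cyclooxygenases turn it into prostaglandin H2, from which separate synthases make prostaglandin E2, prostaglandin D2 and thromboxane. In the other branch, 5-lipoxygenase with its activating protein makes leukotriene A4, which is then turned into leukotriene B4 or leukotriene C4. Ptgs2 is the cyclooxygenase known to be induced by inflammatory signals in macrophages, and DHA is known to compete with arachidonic acid in membranes and for these enzymes.

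Values are unique molecular identifiers (UMIs) summed over the cells of a library and scaled to a common library total (CPM). UMIs count molecules from their 3′ ends and are not scaled by gene length, so levels are compared between libraries and not between genes. Cells with over 20000 UMIs, at least 2000 genes and under 20% mitochondrial UMIs were kept, which left 692 to 3073 cells and 22045775 to 125716982 UMIs per library. The libraries differed in how many barcodes this removed. At least 20% mitochondrial UMIs were found in 29.0% of Con barcodes, in 35.8% to 54.7% of Veh barcodes and in 74.4% to 80.04% of DHA barcodes. The part that this difference has in any contrast of DHA with Veh was not tested. Among kept cells the median mitochondrial share was 6.61% to 7.53%, and any 2 libraries shared 0 to 4 barcodes of kept cells. All 9 macrophage markers checked had UMIs in every library, with a summed level of 5817 to 7089 CPM, and every kept cell held at least 3 of them.

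Mast cells and platelets are known as strong sources of leukotrienes, prostaglandin D2 and thromboxane, so their markers were checked beside the members. Of 10 mast cell and basophil markers, 8 were at 0 in all 7 libraries, among them Cpa3, Mcpt4, Tpsb2, Fcer1a and Kit. Their summed level was 0.151 to 0.597 CPM before 4 h of LPS. At 4 h it was 9.98 CPM with Veh and 4.81 CPM with DHA, where nearly all of it was Hdc, the histamine-forming enzyme. The 6 platelet markers summed to 0.0716 to 0.40 CPM. No kept cell held 3 markers of mast cells, platelets or any other type checked. In the smallest library (0 of 692 cells) this allows a share of up to 0.434%, with 3 cells taken as the bound for a count of 0.

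After 4 h of LPS, Ptgs2 and Ptges, the inducible pair of the prostaglandin E2 route, were far higher than at 0 h in both Veh and DHA cells. The 4 genes of the leukotriene branch and Ptgs1 were lower by more than 1.5-fold, in contrasts where 52.3% (Veh) and 46.7% (DHA) of all genes passed this limit. With edgeR TMM factors, Alox5 and Ltc4s stayed past it in both and Lta4h in DHA alone. Among kept cells, those with DHA had less Ptgs2 after 1 h of LPS and more Ptges after 4 h than those with Veh. Over all deposited barcodes the Ptges ratio at 4 h kept its direction but was within 1.5-fold.

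**Figure D1:**
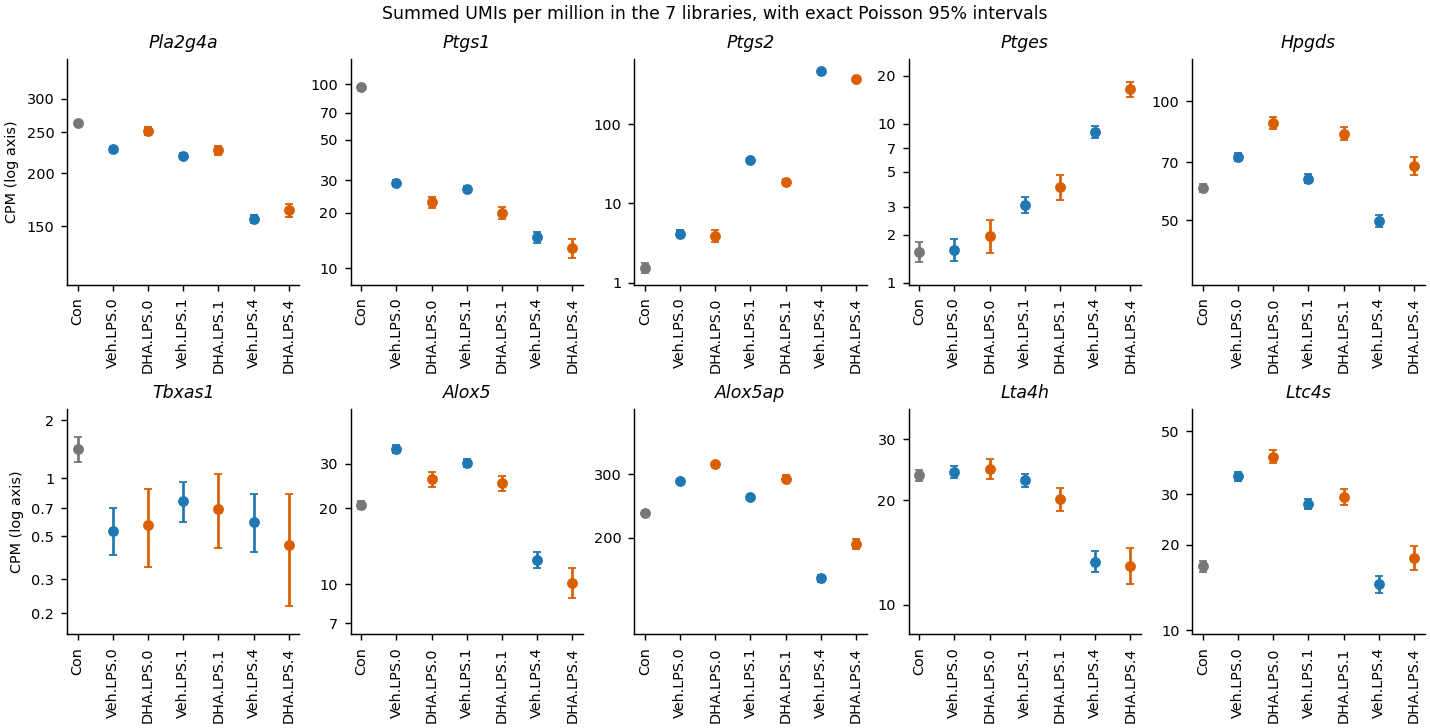
Level of each of the 10 genes in the 7 libraries, in CPM on log axes that differ between panels, with exact Poisson 95% intervals (Con grey, Veh blue, DHA orange). Ptgs2 runs from 1.52 CPM in Con to 465 CPM in Veh.LPS.4, while Pla2g4a stays between 156 and 263 CPM.

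Pla2g4a (ENSMUSG00000056220) codes for the cytosolic phospholipase A2 that opens the pathway. On mm10 it lies at chr1:149829618-149961290, and 138740 bases separate it from Ptgs2, its neighbour in the pathway. Its level was 263 CPM in Con, 228, 220.02 and 156 CPM in Veh through 0, 1 and 4 h of LPS, and 252, 227 and 163 CPM in DHA through the same hours. The pair of 4 h libraries was the lowest, and the highest library had 1.69 times the level of the lowest. With each cell thinned to 20000 UMIs, a Pla2g4a UMI was found in 89.5% to 98.7% of the cells of each library. The part of this share that free RNA gives was not measured.

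Ptgs1 (ENSMUSG00000047250, chr2:36216742-36258593) codes for the constitutive cyclooxygenase. It was highest in Con, with 96.2 CPM. Its level was 28.9, 27.0 and 14.7 CPM in Veh through 0, 1 and 4 h of LPS. In DHA it was 22.8, 19.9 and 12.8 CPM through the same hours. The Con library stood apart from the other 6. The ratio of Veh.LPS.0 to Con was 0.301 (0.289 to 0.313), which lay at percentile 0.163 of the ratios of the 10410 genes with a mean of at least 1 CPM. The share of cells with a Ptgs1 UMI at equal depth was 78.7% in Con and 39.2% in Veh.LPS.0. Within each hour the DHA library was below its Veh partner, but at 4 h the Poisson intervals of the pair overlapped.

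Ptgs2 (ENSMUSG00000032487, chr1:150100031-150108234) codes for the inducible cyclooxygenase. It had a level of 1.52 CPM in Con, 4.13, 35.6 and 465 CPM in Veh through the 3 hours, and 3.91, 18.8 and 373 CPM in DHA. The libraries ordered by hour of LPS with no overlap, and only Veh.LPS.0 and DHA.LPS.0 were neighbours whose intervals overlapped. In Veh cells LPS gave a ratio to 0 h of 8.63 (7.78 to 9.58) at 1 h and 112.7 (102.2 to 124.5) at 4 h. The 4 h ratio lay at percentile 99.8 of the 10410 genes. In DHA cells the ratios were 4.80 (3.98 to 5.82) and 95.4 (80.6 to 113.8). The 0 h levels behind these ratios came from 408 UMIs in Veh and 137 in DHA. Of these, 43.9% in Veh and 40.9% in DHA were in 5 cells, which the intervals do not take into account. With the mean of per-cell CPM, the log2 ratio at 1 h in Veh was 3.37 in place of 3.11.

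The mix of cyclooxygenase transcripts changed with treatment. Ptgs2 made up 1.55% (exact binomial interval 1.34 to 1.79) of the summed Ptgs1 and Ptgs2 UMIs in Con. It made up 12.5% in Veh.LPS.0 and 14.6% in DHA.LPS.0, then 56.9% in Veh.LPS.1 and 48.5% in DHA.LPS.1. After 4 h of LPS it made up 96.9% in Veh and 96.7% in DHA, with intervals of 96.7 to 97.1 and 96.3 to 97.1 that overlapped. Capture can differ between the 2 genes, so these shares are read only against each other across libraries.

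Ptges (ENSMUSG00000050737, chr2:30889471-30931020) codes for the microsomal prostaglandin E synthase known to be induced together with Ptgs2. Its level was 1.57 CPM in Con, 1.61, 3.09 and 8.84 CPM in Veh through the 3 hours, and 1.97, 3.99 and 16.5 CPM in DHA. The 4 h libraries were the highest, and DHA.LPS.4 stood above Veh.LPS.4 without overlap of their intervals. LPS gave ratios to 0 h of 1.92 (1.58 to 2.34) at 1 h and 5.49 (4.59 to 6.60) at 4 h in Veh cells. In DHA cells they were 2.03 (1.5 to 2.76) and 8.36 (6.45 to 10.98).

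Hpgds (ENSMUSG00000029919, chr6:65117293-65144981) codes for the hematopoietic prostaglandin D synthase. It had a level of 60.3 CPM in Con, 72.0, 63.7 and 49.8 CPM in Veh through the 3 hours, and 88.0, 82.7 and 68.6 CPM in DHA. Within each hour the DHA library was the higher one, with no overlap of intervals. Of the 9 members with a mean of at least 1 CPM, it was the one that stayed within 1.5-fold in all 8 contrasts described below, among kept cells. Tbxas1 (ENSMUSG00000029925, chr6:38864159-39084590), the thromboxane A synthase gene, was the member with the fewest UMIs, with 10 to 178 per library. Its level was 1.42 CPM in Con and 0.454 to 0.762 CPM in the other 6 libraries, whose intervals overlapped from each to the next in order. Its mean of 0.718 CPM kept it out of the counts below.

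Alox5 (ENSMUSG00000025701, chr6:116410071-116461178) codes for 5-lipoxygenase, which starts leukotriene synthesis. Its level was 20.6 CPM in Con, 34.3, 30.3 and 12.5 CPM in Veh through the 3 hours, and 26.0, 25.1 and 10.1 CPM in DHA. Veh.LPS.0 was the highest library and the 4 h pair the lowest. Ltc4s (ENSMUSG00000020377, chr11:50236461-50238532), the leukotriene C4 synthase gene, had a level of 16.8 CPM in Con, 34.7, 27.7 and 14.5 CPM in Veh through the 3 hours, and 40.8, 29.5 and 18.0 CPM in DHA. It too was highest at 0 h, here in DHA.LPS.0, and it was lowest in Veh.LPS.4. Unlike for Alox5, no DHA library was below its Veh partner.

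Alox5ap (ENSMUSG00000060063, chr5:149265004-149288153) codes for the 5-lipoxygenase activating protein, which presents arachidonic acid to the enzyme. It had a level of 234 CPM in Con, 287, 260 and 155 CPM in Veh through the 3 hours, and 319, 292 and 193 CPM in DHA. It was found in 89.4% to 99.6% of cells at equal depth, while Alox5 was found in 16.9% to 47.4%. Lta4h (ENSMUSG00000015889, chr10:93453396-93484896) codes for the hydrolase that makes leukotriene B4. It had a level of 23.6 CPM in Con, 24.2 then 22.8 CPM in Veh at 0 and 1 h of LPS, and 24.6 then 20.1 CPM in DHA. At 4 h it had 13.3 CPM in Veh and 12.9 CPM in DHA, with overlapping intervals.

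The first contrast set Veh.LPS.0 against Con and is called reduced serum here. The 2 libraries differ in serum, in BSA and in 24 h more of culture, whose parts cannot be told apart. By size alone, 3 of the 9 members with a mean of at least 1 CPM were higher by more than 1.5-fold and 1 was lower, where 20.8% of the 10410 genes with such a mean passed this limit in either direction. The higher ones were Ptgs2 at 2.72 (2.28 to 3.25), Ltc4s at 2.07 (1.962 to 2.19) and Alox5 at 1.66 (1.58 to 1.75), and the lower one was Ptgs1. The Ptgs2 ratio rested on few cells. Of the 408 Ptgs2 UMIs of Veh.LPS.0, 85 were in 1 cell and 43.9% in 5 cells, and the share of cells with a Ptgs2 UMI at equal depth was 2.34% there and 2.098% in Con.

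The next contrasts asked how LPS changed these genes against 0 h of the same pretreatment. Those in Veh share Veh.LPS.0 with the contrast of reduced serum, and those in DHA are set against DHA.LPS.0. After 1 h in Veh, 2 of the 9 members were higher and 0 lower, against 13.1% of all genes tested, and in DHA the numbers were 2 and 0, against 14.1%. The 2 were Ptgs2 and Ptges in both pretreatments. The other 7 members had log2 ratios of -0.32 (Ltc4s) to -0.05 (Pla2g4a) in Veh, and the median over all genes was -0.12.

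After 4 h in Veh, 2 members were higher and 5 lower, against 52.3% of all genes tested. In DHA, 2 were higher and 6 lower, against 46.7%. With so many genes past the limit, the count by itself says little about the members, and their directions and sizes are what follows. In Veh the lower members were Alox5 at a ratio of 0.364 (0.336 to 0.395), Ltc4s at 0.417 (0.386 to 0.450), Ptgs1 at 0.509 (0.471 to 0.549), Alox5ap at 0.539 (0.527 to 0.552) and Lta4h at 0.550 (0.506 to 0.596). Among the ratios of the 10410 genes these lay at percentiles 13.8 (Alox5), 18.2 (Ltc4s), 26.4 (Ptgs1), 29.3 (Alox5ap) and 30.3 (Lta4h). In DHA cells the same 5 genes were lower, with Pla2g4a as the sixth at 0.648 (0.623 to 0.673).

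The scale matters for the size of these lower values. The median log2 ratio over all genes was -0.43 in Veh and -0.32 in DHA at 4 h, and that of the 9 members was -0.86 and -0.73. With edgeR TMM factors, which bring the median over all genes to 0.00 in Veh and -0.02 in DHA, 2 members were higher and 2 lower in Veh, and 2 were higher and 3 lower in DHA. Alox5 (log2 ratio -1.03 in Veh and -1.06 in DHA) and Ltc4s (-0.83 and -0.88) stayed past 1.5-fold, as did Lta4h in DHA (-0.63). Ptgs1 (-0.54 and -0.54) and Alox5ap (-0.46 and -0.43) kept their direction but did not pass the limit.

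**Figure D2:**
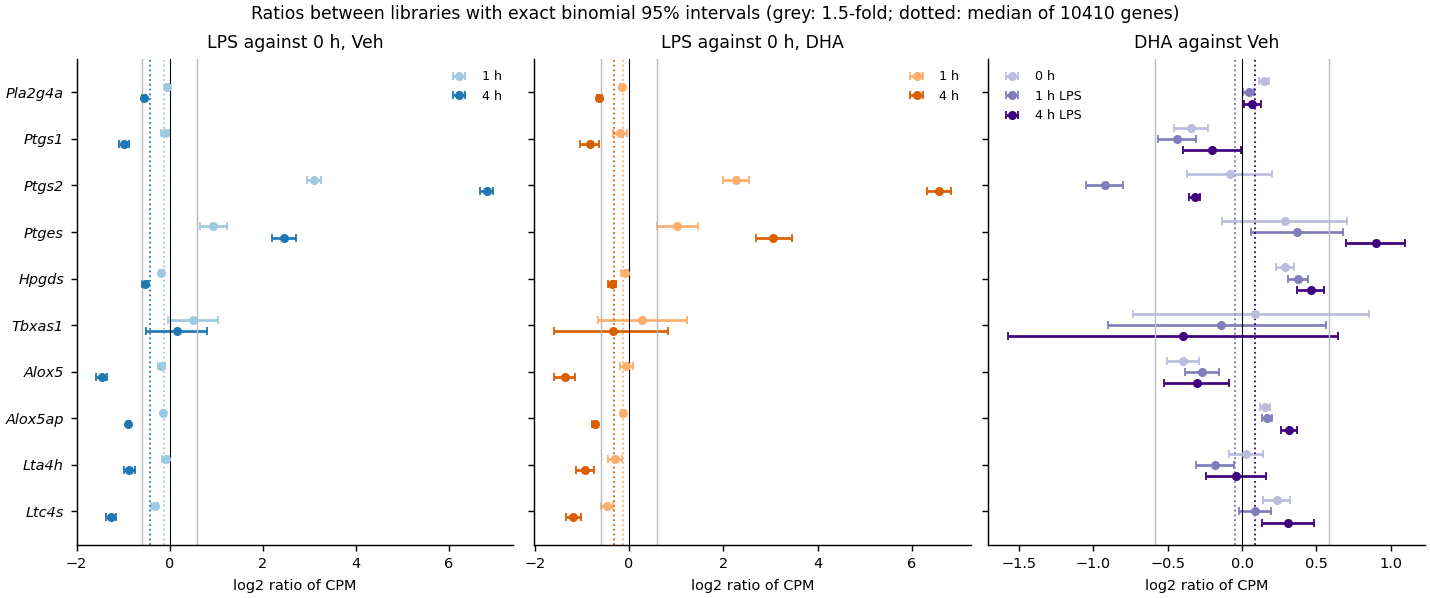
Log2 ratio of CPM between libraries for each of the 10 genes, with exact binomial 95% intervals, for LPS against 0 h in Veh (left) and DHA (middle) and for DHA against Veh at each hour (right). Grey lines mark 1.5-fold and dotted lines the median over 10410 genes. After 4 h of LPS, Ptgs2 (6.82 in Veh) and Ptges (2.46) stand to the right while Alox5 (-1.46) and Ltc4s (-1.26) stand to the left.

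The last contrasts asked how DHA changed these genes at the same hour. Without LPS, 0 of 9 members passed 1.5-fold in either direction, against 4.02% of all genes tested. After 1 h of LPS 1 passed, against 5.49%, and after 4 h 1 passed, against 9.17%. The gene past the limit at 1 h was Ptgs2, lower in DHA at a ratio of 0.527 (0.482 to 0.575). This ratio lay at percentile 0.759 of the genes tested. Of the Ptgs2 UMIs behind it, 23.95% of 597 in DHA.LPS.1 and 7.84% of 3369 in Veh.LPS.1 were in 5 cells. The interval does not take this into account. At 4 h the Ptgs2 ratio was 0.802 (0.782 to 0.822), at percentile 8.33. This 4 h direction depends on the filter on cells: over all deposited barcodes, the log2 ratio of Ptgs2 was 0.14 in place of -0.32.

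The gene past the limit at 4 h was Ptges, higher in DHA at a ratio of 1.86 (1.62 to 2.13), after 1.22 (0.909 to 1.63) at 0 h and 1.29 (1.04 to 1.60) at 1 h. Over all deposited barcodes its 4 h log2 ratio was 0.54 in place of 0.90, within 1.5-fold. Ptgs2 and Ptges, which code for consecutive enzymes, thus lay on opposite sides of Veh in kept DHA cells after LPS. Set against each pretreatment's own 0 h, the log2 ratio for LPS was lower in DHA by 0.85 for Ptgs2 at 1 h (difference -0.85, -1.15 to -0.54). At 4 h the difference was -0.24 (-0.52 to 0.04) for Ptgs2 and 0.61 (0.16 to 1.06) for Ptges. Over all deposited barcodes the 1 h difference for Ptgs2 was -0.57. The 4 h difference for Ptgs2 turned to 0.38 there, from log2 ratios of 7.03 in DHA and 6.65 in Veh, and that for Ptges was 0.49. Thinning cells to equal depth moved both Ptgs2 differences the other way, to lower values. Mean Ptgs2 UMIs per thinned cell were 0.0705, 0.706 and 9.18 in Veh through 0, 1 and 4 h. In DHA they were 0.0931, 0.390 and 7.53. The thinned log2 ratio for LPS in DHA was 2.07 at 1 h and 6.34 at 4 h, in place of 2.26 and 6.58. The intervals given for the differences cover counting error only. The Ptgs2 values behind them rest on the 137 UMIs of DHA.LPS.0, of which 40.9% were in 5 cells.

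Hpgds was higher in DHA at a ratio of 1.22 (1.17 to 1.28) at 0 h, 1.30 (1.24 to 1.36) at 1 h and 1.38 (1.29 to 1.47) at 4 h, none past 1.5-fold. With no filter on barcodes the 4 h log2 ratio of Hpgds was 0.62, past that limit. Alox5 was lower at 0.759 (0.705 to 0.817), 0.829 (0.765 to 0.897) and 0.810 (0.694 to 0.942). Ptgs1 was lower at 0.790 (0.729 to 0.854), 0.738 (0.675 to 0.805) and 0.870 (0.757 to 0.996). Alox5ap, which acts with Alox5, lay on the other side, at 1.11 (1.09 to 1.14), 1.12 (1.10 to 1.15) and 1.24 (1.20 to 1.29). By sign alone, 8 of the 9 members were on 1 side of Veh at all 3 hours (Lta4h was not). So were 39.2% of the 10410 genes, in libraries that also differed in the share of barcodes removed. No such share was computed for genes of like level. The median log2 ratio over all genes was -0.05 at 0 h and 0.09 at 4 h. Among the 8, Pla2g4a had a 4 h log2 ratio of 0.07, which turned to -0.05 with edgeR TMM factors. For Ptgs2 at 0 h the log2 ratio was -0.08 (-0.37 to 0.20), an interval that includes no change. The same held for Ptges at 0 h (-0.14 to 0.71) and Ltc4s at 1 h (-0.02 to 0.20). With cells thinned to 20000 UMIs the Ptgs2 value at 0 h was 0.40. Over all deposited barcodes the log2 ratio of Ptgs1 at 0 h turned to 0.06, from -0.34.

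Within a library, Ptgs2 was carried by few cells before LPS and by most cells after 4 h. At equal depth of 20000 UMIs, a Ptgs2 UMI was found in 2.098% of Con cells (1.61 to 2.69), 2.34% of Veh.LPS.0 cells (1.78 to 3.01) and 4.58% of DHA.LPS.0 cells (3.16 to 6.41). It was found in 18.2% of Veh.LPS.1 cells (16.8 to 19.6) and 12.6% of DHA.LPS.1 cells (10.4 to 15.1). After 4 h it was found in 82.1% of Veh cells (79.5 to 84.4) and 81.1% of DHA cells (77.9 to 83.9). Without thinning these shares were 3.16%, 3.06%, 6.02%, 21.8%, 16.6%, 90.7% and 86.7%. The culture held no other cell type that should lack the gene and could show the share that free RNA gives.

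Among kept cells the 2 pretreatments thus had close shares of Ptgs2 cells at 4 h, and the UMIs per cell differed. UMIs per cell were not looked at over all deposited barcodes, where the Ptgs2 log2 ratio of DHA to Veh at 4 h was 0.14 in place of -0.32. The median was 5 UMIs per Veh.LPS.4 cell and 3 per DHA.LPS.4 cell, and at least 10 UMIs were found in 34.7% and 26.2% of cells. The spread among cells was wide. The tenth of cells with the most Ptgs2 held 86.9% of its UMIs in Veh.LPS.1 and 93.2% in DHA.LPS.1, and still 38.4% in Veh.LPS.4 and 45.05% in DHA.LPS.4. For Pla2g4a the same share was 20.4% to 26.5% over the 7 libraries. Of Veh.LPS.4 cells, 17.9% had no Ptgs2 UMI at this depth while 1 cell had 145.

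**Figure D3:**
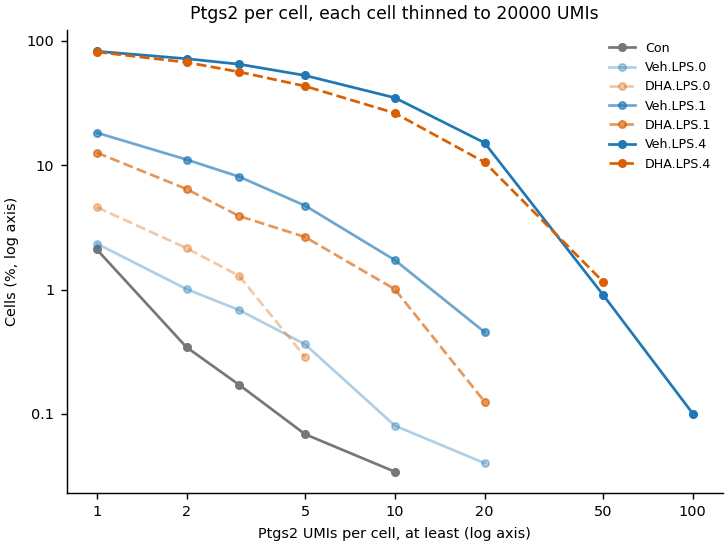
Percent of kept cells (log axis) with at least a given number of Ptgs2 UMIs (log axis) in each library, with every kept cell thinned to 20000 UMIs, solid for Con and Veh and dashed for DHA. Points at 0 cells are not drawn. The 4 h libraries start together at 82.1% and 81.1% for 1 UMI and part to 34.7% and 26.2% for 10 UMIs.

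For Ptges the share of cells depends on depth. At equal depth, 14.5% of Veh.LPS.4 cells (12.4 to 16.8) and 24.0% of DHA.LPS.4 cells (20.9 to 27.3) had a Ptges UMI. Without thinning the shares were 33.8% and 31.4%, where the median cell had 56239 UMIs in Veh.LPS.4 and 29631 in DHA.LPS.4. The thinned order is that of the CPM. Before LPS, 2.70% of Veh cells and 3.30% of DHA cells had a Ptges UMI at equal depth, with overlapping intervals.

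On chromosome 1, Ptgs2os ends 156 bases from Ptgs2, and its level is not given here. Farther off, at a distance of 50808 bases, lies Ptgs2os2 (chr1:150159043-150164948), the long noncoding RNA gene also known as lincRNA-Cox2. It was looked at for its position. Its level was 1.69 CPM in Con, 1.06, 2.28 and 30.9 CPM in Veh through the 3 hours, and 0.999, 1.70 and 25.1 CPM in DHA. Its ratio to 0 h after 4 h of LPS was 29.0 (23.8 to 35.7) in Veh and 25.2 (17.9 to 36.5) in DHA. Its ratio of DHA to Veh at 4 h was 0.814 (0.739 to 0.896), beside 0.802 for Ptgs2, both among kept cells. Over all deposited barcodes the log2 ratio of Ptgs2 was 0.14 in place of -0.32, and Ptgs2os2 was not looked at there.

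The profile over the 7 libraries was compared with those of 7300 genes with a mean of at least 10 CPM, by the root mean square difference of centred log2 values. Likeness across 7 libraries is a description, since all genes share the same libraries. Every profile includes the DHA and Veh libraries of each hour. A near gene's likeness to its member in DHA against Veh is thus partly built in. The genes nearest to Ptgs2 were Saa3 (0.39), Fabp4 (0.47), Acod1 (0.74), Csf2 (0.86) and Il1f6 (0.97), against a spread of Ptgs2 itself of 2.99. Before 4 h of LPS, Saa3, Fabp4, Csf2 and Il1f6 were under 10 CPM in every library. They thus passed the limit on the mean only through the 4 h libraries, where Ptgs2 is high. Their high 4 h values follow from that limit and nothing is read from them. Saa3 is an acute-phase protein gene, Acod1 makes itaconate and Csf2 codes for GM-CSF. At 4 h of LPS Saa3 had 162 CPM with Veh and 183 CPM with DHA, and was thus higher in DHA, unlike Ptgs2 in kept cells. The Ptgs2 direction depends on the filter on cells, with a log2 ratio of 0.14 over all deposited barcodes in place of -0.32. The genes nearest to it were not looked at without that filter. Among kept cells the other 4 near genes were lower in DHA at 4 h. With Veh and DHA, Fabp4 had 59.2 and 33.7 CPM and Acod1 885 and 827 CPM. Csf2 had 80.9 and 38.5 CPM, and Il1f6 63.9 and 50.5 CPM. These values describe the near genes and are not read as a result about Ptgs2.

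The genes nearest to Ptges were Ampd3 (0.24), Slc7a11 (0.29), Rab11fip1 (0.30), Ehd1 (0.33) and Osgin2 (0.33), against a spread of Ptges of 1.17. Slc7a11 codes for the cystine transporter xCT. Ampd3, an AMP deaminase gene, had 15.5 CPM with Veh and 30.03 CPM with DHA at 4 h of LPS. The others differed less there: Slc7a11 had 262 and 298 CPM, Rab11fip1 58.8 and 60.6 CPM, and Ehd1 344 and 385 CPM. Osgin2 was lower in DHA, with 126 CPM in Veh and 111 CPM in DHA. These values too are description only. Nearest to Alox5 were Pros1 (0.10), Idh1 (0.10), Ptges3l (0.12), Cped1 (0.12) and Ptpro (0.12), and nearest to Ltc4s were Sapcd1 (0.08), Nenf (0.09), Abcd4 (0.09), Nbeal1 (0.10) and Dtx3 (0.10). Nearest to Tbxas1 were Pdss1 (0.16), Slc35d1 (0.17), Nolc1 (0.18), Gfm1 (0.18) and Pabpc4 (0.18), where the Tbxas1 profile itself rests on few UMIs.

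A list of 75 other genes of the pathway gave the surroundings of the members. All 75 were in the files, and 38 had a mean of at least 1 CPM. The other 37 included all 6 genes listed for 12- and 15-lipoxygenases and Hpgd, the main prostaglandin-inactivating dehydrogenase gene, which had no UMI. With 3 UMIs taken as the bound for a count of 0, up to 0.0239 to 0.136 CPM is allowed, depending on the library. The prostaglandin E2 receptor gene Ptger2 reached this mean only through the 4 h libraries, with 4.71 CPM in Veh.LPS.4, 4.26 CPM in DHA.LPS.4 and 0.0318 to 0.476 CPM in the other 5. Fam213b reached it only through the 0 h libraries. Higher values of these 2 genes in those libraries follow from the limit and nothing is read from them, so counts over the 36 others are given too. In Veh.LPS.0 against Con, 15 of the 38 were higher by more than 1.5-fold and 2 lower (13 and 2 of the 36). Of all genes, 20.8% passed this limit in either direction. Fam213b aside, the higher ones with the largest ratios were Ptger2, with only 4 UMIs in Con, then Fads2, Pla2g2e and Cyp4f13. Fads2, the desaturase that makes long polyunsaturated fatty acids, was at 4.12 (3.69 to 4.62). The lower ones were Mgst2 at 0.514 (0.492 to 0.536) and Ptges3 at 0.628 (0.619 to 0.638).

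After 1 h of LPS, 3 of the 38 were higher and 3 lower in Veh (3 and 2 of the 36), beside 13.1% of all genes, and 2 were higher and 3 lower in DHA (also 2 and 3 of the 36), beside 14.1%. The secreted phospholipase gene Pla2g5, at 1.65 (1.59 to 1.71) in Veh and 1.67 (1.56 to 1.78) in DHA, and the acyl-CoA synthetase gene Acsl1, at 1.62 (1.56 to 1.69) and 1.87 (1.75 to 1.99), were the higher ones in both. The prostacyclin receptor gene Ptgir was lower in both, at 0.569 (0.536 to 0.603) and 0.554 (0.508 to 0.603). After 4 h, 5 of the 38 were higher and 18 lower in each pretreatment (4 and 17 of the 36), beside 52.3% of all genes in Veh and 46.7% in DHA. The count is thus read only as a description, with a list median of -0.57 on the log2 scale in Veh beside -0.43 over all genes.

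Ptger2 and Fam213b aside, the higher genes at 4 h in Veh were led by Dpep2 at 5.23 (5.003 to 5.46), Pla2g5 at 2.92 (2.81 to 3.02) and Lpcat2 at 1.96 (1.85 to 2.08). Dpep2 codes for a dipeptidase that turns leukotriene D4 into leukotriene E4, and Lpcat2 for an acyltransferase of membrane lipids. The lowest ratios were those of the lysosomal phospholipase gene Pla2g15 at 0.230 (0.190 to 0.276), the cysteinyl leukotriene receptor gene Cysltr1 at 0.247 (0.222 to 0.275) and the elongase gene Elovl5 at 0.285 (0.268 to 0.303). In DHA cells Dpep2, Pla2g5 and Lpcat2 were past 1.5-fold in the same direction, and Cysltr1 was at 0.153 (0.123 to 0.188).

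**Figure D4:**
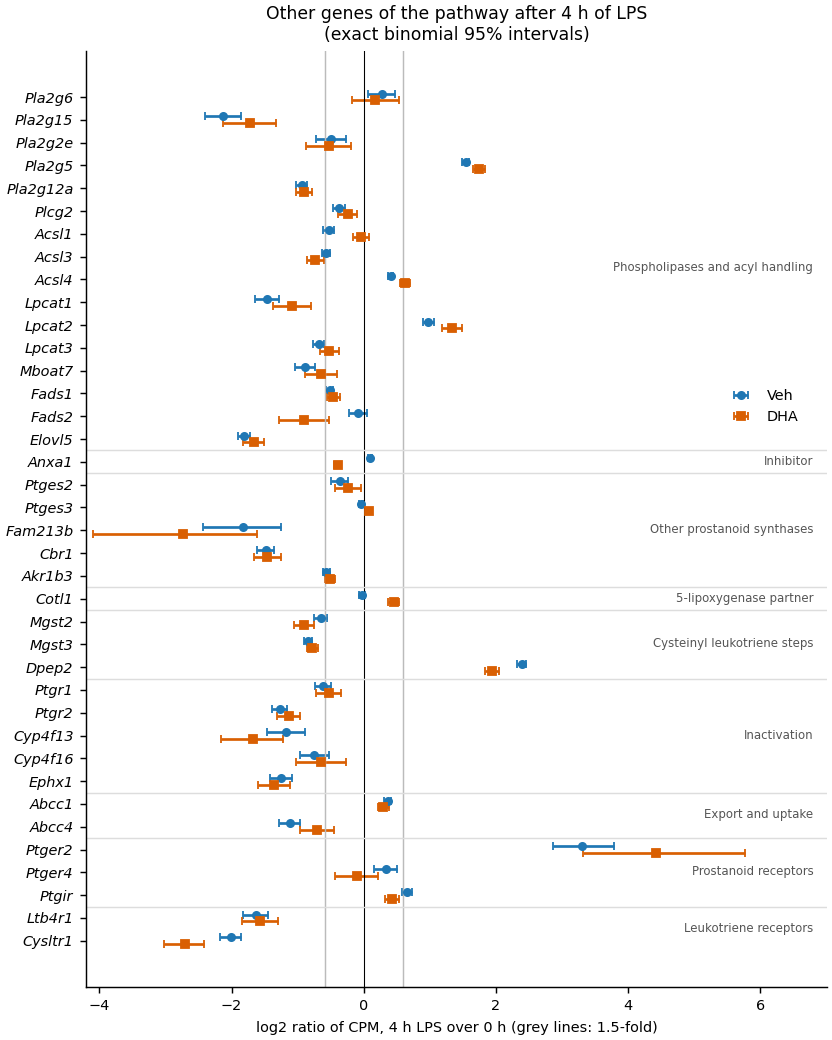
Log2 ratio of CPM after 4 h of LPS over 0 h for the 38 other pathway genes with a mean of at least 1 CPM, in Veh (blue circles) and DHA (orange squares), with exact binomial 95% intervals and grouped by role. Dpep2, Pla2g5 and Lpcat2 stand to the right of the 1.5-fold line in both, while Ltb4r1 and Cysltr1 stand to the left.

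Between DHA and Veh, 0 of the 38 were higher and 2 lower at 0 h (0 and 1 of the 36), beside 4.02% of all genes. At 1 h 2 were higher and 2 lower (1 and 2 of the 36), beside 5.49%. At 4 h 0 were higher and 4 lower (0 and 3 of the 36), beside 9.17%. Fads2 was lower at each hour, at 0.477 (0.413 to 0.549), 0.417 (0.353 to 0.490) and 0.272 (0.212 to 0.344). The prostaglandin E2 receptor gene Ptger4 was lower at 1 h, at 0.560 (0.446 to 0.696), and Ltb4r1, the leukotriene B4 receptor gene, was higher at 1.51 (1.37 to 1.67). At 4 h Cysltr1 was lower in DHA, at 0.656 (0.520 to 0.821), with 4.40 CPM beside 6.71 CPM in Veh. Acsl3 was lower too at that hour, at 0.654 (0.600 to 0.712), with 30.2 CPM beside 46.1 CPM. Its ratios at 0 h and 1 h were 0.731 and 0.672, within 1.5-fold. Ptger2, the other gene past the limit at both 0 h and 1 h, had at most 47 UMIs in these libraries.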

How the data were processed

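FLM RNA from 7 conditions, 1 library each, was captured with a 10x Chromium 3′ kit (v3 chemistry). The authors deposited raw UMI counts per gene and barcode for each library, without normalization and before their filter on cells. The file headers and the submitters' processing notes name Cell Ranger 3.1.0 and mm10, and the study's methods name another version. Cells were kept as in the study's methods (over 20000 UMIs, at least 2000 genes, under 20% mt- UMIs). No doublet caller was run. UMIs were summed per library and scaled to CPM. Levels have exact Poisson and shares exact binomial (Clopper-Pearson) 95% intervals. Bounds for a count of 0 are not from these intervals but are 3 counts over the cells or UMIs of the library. Ratios have exact binomial intervals on the summed UMIs, and differences of log2 ratios have normal ones. PCR duplicates are collapsed by UMI, so these cover counting error only. With 1 library per condition no test was made, and genes were counted by size (1.5-fold) among those with a mean of at least 1 CPM. Shares at equal depth used cells thinned once to 20000 UMIs with a fixed seed. Nearest profiles used log2(CPM + 0.1). Named genes were the members, at most 4 pathway genes per direction and contrast by size of ratio, and the 5 nearest profiles of 5 members. The members and lists were chosen with earlier results of these data known. Gene positions are RefSeq's for GRCm38.p6 (mm10). Promoter and protein sequences were not analysed here. The calculation of ratios and their intervals was tested on simulated counts, and thinning on some real cells of DHA.LPS.4. The intervals of levels and shares were not tested this way. Tools were Python 3.11.15, numpy 2.4.6, scipy 1.17.1, pandas 2.3.3 and, for TMM factors, edgeR 4.0.16 in R 4.3.3. Alternatives were 2 other scalings, per-cell means, 3 other filters on cells, thinning and 2 other filters on low values.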

Additional observations from a re-analysis of the deposited data

How the results depend on the processing

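Of 25 ratios of members past 1.5-fold, 25 kept their direction under the 7 alternatives that recompute the ratios and 18 also stayed past 1.5-fold under all 7. The other 2 alternatives, filters on low values, only change which genes are counted, and the one on shares of cells drops 9 of the 25, all of them ratios of Ptges or of Ptgs2 before 4 h of LPS. With edgeR TMM factors the number of members past 1.5-fold was 4 in place of 7 for 4 h of LPS in Veh and 5 in place of 8 in DHA. With genes limited to those seen in 50% of cells on either side, which Ptgs2 at 1 h and Ptges were not, it was 0 in place of 2 for 1 h of LPS in Veh and in DHA, and 0 in place of 1 for DHA against Veh at 1 h and at 4 h. With no filter on barcodes it was 1 in place of 0 for DHA against Veh at 0 h (Alox5, log2 ratio -0.60) and 2 in place of 1 at 4 h. These 2 were Alox5 (-0.68, in place of -0.30) and Hpgds (0.62, in place of 0.46), while Ptges was at 0.54 there, within 1.5-fold. Without that filter the log2 ratio of Ptgs2 in DHA against Veh at 4 h was 0.14 in place of -0.32, and the cause was not tested. Directions of members within 1.5-fold also turned in places, such as Pla2g4a in DHA against Veh at 4 h, at 0.07 and at -0.05 with TMM factors, and Ptgs1 at 0 h, at -0.34 and at 0.06 with no filter on barcodes. No paired analysis was possible because each condition had 1 library, and none could be left out in turn. Depth limits Tbxas1, with 10 to 178 UMIs per library, and Ptgs2 before LPS.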

Other observations

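Members were also looked at together in the same cells, at equal depth, as a description of each library. In Veh.LPS.4, Ptges was found in 16.1% of cells with a Ptgs2 UMI and in 7.30% of cells without one. In DHA.LPS.4 these shares were 24.6% and 21.4%. The cells without a Ptgs2 UMI were the smaller group, 17.9% of 993 cells in Veh.LPS.4 and 18.9% of 692 in DHA.LPS.4, and no intervals were computed here. In Veh.LPS.4, Alox5 was found in 29.8% of the cells without a Ptgs2 UMI and in 19.9% of those with one. The shares were 94.9% and 88.2% for Alox5ap, 28.7% and 21.0% for Lta4h, and 58.4% and 52.1% for Hpgds, outside the leukotriene branch. The order was the other way for Ltc4s (20.2% and 24.0%) and Pla2g4a (83.7% and 90.8%), and Ptgs1 had close shares (21.9% and 22.3%). In DHA.LPS.4 the shares were 16.8% and 16.9% for Alox5, 92.4% and 92.3% for Alox5ap, 26.0% and 21.6% for Lta4h, 29.8% and 24.6% for Ltc4s, and 92.4% and 92.2% for Pla2g4a. For Hpgds they were 65.6% and 64.7%, and for Ptgs1 14.5% and 19.6%. The difference between the libraries was not tested, since cells of 1 library are not replicates.

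Alox5 and Alox5ap, whose products act together, were found in the same cell in 31.4% of cells in Con. The share was 47.2%, 44.3% and 20.2% with Veh through 0, 1 and 4 h of LPS, and 38.7%, 38.5% and 15.3% with DHA. The product of the shares of the 2 genes was 31.3% in Con, 47.2%, 44.1% and 19.4% with Veh, and 38.7%, 38.5% and 15.6% with DHA. Since Alox5ap was found in 89.4% to 99.6% of cells, these values largely follow the share of Alox5. Neither Ptgs1 nor Ptgs2 was found in 20.7% of Con cells, in 59.5% and 61.5% of Veh and DHA cells at 0 h, and in 14.0% and 16.2% after 4 h of LPS. The median cell held 4 of the 10 genes in each of the 7 libraries.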
